A study of Mus musculus with 4 samples.

Results

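Arterial endothelial cells (ECs) were examined in single-cell RNA-seq of whole mouse lung. They were chosen by measured values: a cell was kept when its summed UMIs (unique molecular identifiers, each marking 1 captured RNA molecule) of Cdh5, Cldn5, Egfl7, Ramp2 and Calcrl reached at least 4, when Ptprc had no UMI, when at least 2 of the 6 genes Gja5, Bmx, Cytl1, Sfrp1, Pi16 and Kcnn4 were detected, and when at most 1 of the venous genes Slc6a2, Bst1, Car8 and Selp was detected. This rule gave 66 of 9363 cells and 66 of the 3567 cells that met the EC and Ptprc conditions, called gated ECs here. Lungs came from 2 mice labelled WT, which were ERG fl/fl, and 2 mice labelled ERG CKO, which were CDH5-CreER(T):ERG fl/fl, 1 library each. All 4 mice carried the floxed alleles and received 5 injections of 0.5 mg tamoxifen, with lungs taken 90 days later, and the groups differed in the Cre recombinase, driven by the endothelial Cdh5 promoter. The comparison asked how arterial ECs differ between the genotypes, with the groups named by their labels throughout.

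Arterial ECs line the vessels that bring blood into the lung. They are specified by Notch signalling and SoxF factors, are coupled by the connexins Gja5 and Gja4, and sit on an elastic wall built from elastin, fibulins and latent TGF-beta binding proteins. ERG is an ETS-family transcription factor that endothelium expresses throughout life and that is known for maintaining endothelial genes such as Vwf and for restraining inflammatory adhesion molecules.

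The arterial ECs numbered 11 of 850 gated ECs in WT replicate 1, 10 of 883 in WT replicate 2, 26 of 1154 in ERG CKO replicate 1 and 19 of 680 in ERG CKO replicate 2. Their median depth was 6647 and 9752 UMIs in WT and 7648 and 5725 UMIs in ERG CKO, above the medians of 3768 to 4204 UMIs in the other gated ECs of the same libraries. Summed over cells, the arterial ECs held 112040, 166093, 250151 and 171400 UMIs in the order WT replicates 1 and 2, ERG CKO replicates 1 and 2, and values of the 4 libraries are given in that order below. Levels are UMIs of a gene per 1000000 UMIs of the summed cells (CPM). Depth of this size left many genes at a handful of UMIs per library, and no cell barcode of an arterial EC occurred in a second library.

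Most arterial ECs were borderline by the rule. Exactly 2 rule genes were detected in 5 of 11, 6 of 10, 20 of 26 and 15 of 19 cells, or 45.5% and 60% of the WT and 76.9% and 78.9% of the ERG CKO cells. At least 3 rule genes were detected in 6, 4, 6 and 4 cells, 20 in all, and all 6 in 3 cells. One of the venous genes was detected in 1, 7, 7 and 9 arterial ECs, 24 in all. The commonest pair was Gja5 with Bmx, in 12 cells from all 4 libraries, followed by Cytl1 with Pi16, in 9 cells that all came from the ERG CKO libraries. These values chose the cells and are given as a description. Gja5, a connexin of arterial endothelium, had a UMI in 11 of 11, 8 of 10, 9 of 26 and 8 of 19 arterial ECs, Bmx, a kinase of arterial endothelium, in 7, 6, 15 and 12 cells, and Pi16 in 2, 1, 12 and 10 cells.

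The label was checked against genes outside the rule. Cdh13, a cadherin listed as an arterial marker, had a UMI in 18 of 66 arterial ECs (27.3%) and in 76 of 3501 other gated ECs (2.17%), at 286, 48.2, 95.9 and 175 CPM against 10.4 to 18.1 CPM. Mgp, an inhibitor of mineralisation in the artery wall, was at 7194, 5088, 3994 and 5648 CPM in arterial ECs and at 261 to 1482 CPM in the other gated ECs. Of the arterial UMIs of Mgp, 1595 lay in 12 cells with RNA of other lineages, described below. Without those cells Mgp was at 12328, 7410, 2794 and 5444 CPM. Of the 20 cells with at least 3 rule genes, 20 had a UMI of Mgp, 19 of Ltbp4, 18 of Vwf and 15 of Cdh13. The 10 WT cells among them held 20 to 244 UMIs of Mgp each. Of the 10 ERG CKO cells, 3 held more UMIs of Cd36 than of Mgp (37, 28 and 26 against 1, 4 and 12), and Vwf had 0, 2 and 0 UMIs in them.

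The 46 cells just inside the threshold, with 2 rule genes, were less uniform. Mgp was detected in 27 of them, Vwf in 25 and Cdh13 in 3, whereas Cd36, a fatty acid carrier of capillary endothelium, was detected in 45. Of the 27 cells with Mgp, 12 were the cells with RNA of other lineages. The 356 gated ECs just outside it, with 1 rule gene and at most 1 venous gene, had a UMI of Mgp in 124 cells, of Vwf in 144 and of Cdh13 in 10. In the 9 cells chosen on Cytl1 and Pi16 alone, Mgp had 3 UMIs in all, Cdh13 and Vcam1 had none, Vwf was detected in 1 cell, and Cd36 and Emcn in all 9. Outside markers therefore bear out the arterial label in 17 of the 20 cells with at least 3 rule genes, and go against it in those 9 cells. They were mixed in the 3 ERG CKO cells with more Cd36 than Mgp, where Cdh13 had 0, 0 and 12 UMIs. Leaving aside cells with RNA of other lineages, described below, 0, 3, 15 and 12 cells held more Cd36 than Mgp, 30 in all. The name arterial ECs is kept for every cell that met the rule.

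Free RNA in droplets was gauged in 1320 T cells, whose median depth was 5820 to 6246 UMIs. Of the rule genes, Gja5 and Bmx each had a UMI in 1 T cell, Cytl1 in 3, and Sfrp1 and Pi16 in none. Kcnn4, a potassium channel that lymphocytes also use, had a UMI in 378 T cells (28.6%), so its detection is not particular to arteries. Mgp was detected in 69 T cells (5.23%) and Vcam1 in 1. After thinning to 1000 UMIs per cell, Mgp was detected in 0.341% to 3.42% of T cells per library and in 44% to 90.9% of arterial ECs.

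RNA of other lung lineages was present in 12 of the 66 cells, 3 in each library. These held at least 15 UMIs of fibroblast markers (10 cells), of smooth muscle and pericyte markers (4 cells) or of epithelial markers other than Scgb1a1 (3 cells), and each had exactly 2 rule genes. One cell of WT replicate 2 held 6034 UMIs of the surfactant gene Sftpc, and one cell of ERG CKO replicate 2 held 401 of the alveolar type 1 gene Ager. With a median of 21744 UMIs against 5812 in the remaining cells, the 12 cells supplied 62.7% and 65.6% of the arterial UMIs in WT and 30.2% and 36% in ERG CKO. Scrublet, a doublet caller, marked none of the 66 cells. Counts of called genes are therefore given below for all 66 cells and for the 54 cells (8, 7, 23 and 16) that remain without these 12.

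The marker lists of other cells moved with these 12. Of 8 fibroblast markers 7 had a UMI in the 66 cells, at a summed 1696, 1258, 636 and 508 CPM, and 5 in the 54 cells, at 0, 17.5, 40.1 and 9.12 CPM, with Col3a1, Lum and Col13a1 at 0. The WT libraries were the higher ones only with the 12 cells included. Of 9 smooth muscle and pericyte markers 8 were detected, at 536, 96.3, 272 and 484 CPM, and 5 in the 54 cells, at 95.7, 70.1, 40.1 and 27.4 CPM. Epithelial markers stood at 303, 41206, 452 and 2532 CPM and at 431, 70.1, 321 and 119 CPM without the 12 cells, with Epcam at 0. Myeloid markers stood at 71.4, 6809, 204 and 75.8 CPM, where 1122 of the 1128 Lyz2 UMIs of WT replicate 2 lay in 1 cell, and at 23.9 to 109 CPM without the 12 cells. In the 54 cells the 6 platelet markers summed to 0 to 245 CPM and the 5 erythroid markers to 0 to 149 CPM. T cell markers were detected for 2 of 5 genes, with Cd3d, Cd3e and Cd3g at 0. Of 7 lymphatic markers Mmrn1, Ccl21a and Reln were at 0, and Lyve1, which is also found outside lymphatics, was at 3806, 3258, 2044 and 702 CPM.

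**Figure D1:**
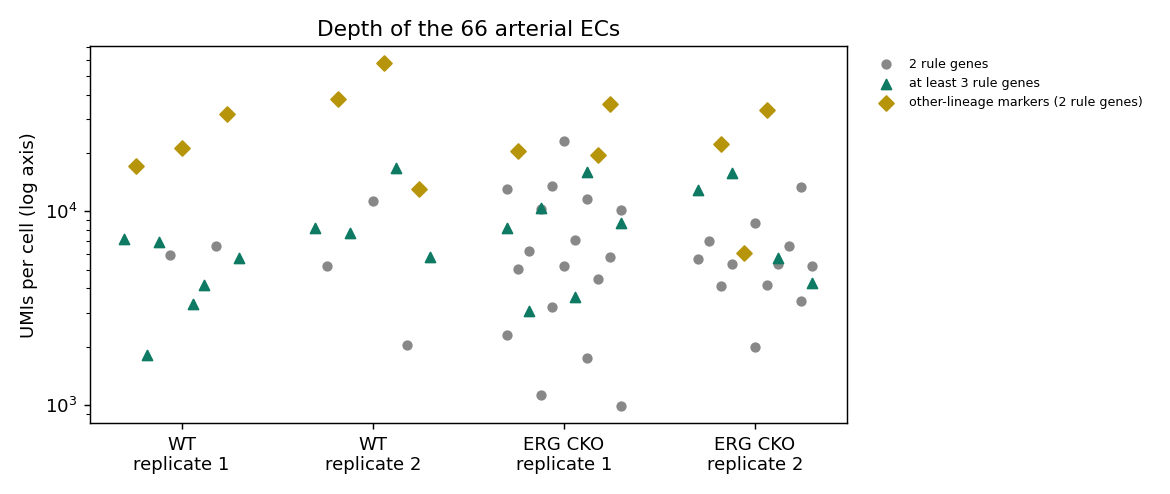
Depth of the 66 arterial ECs by library, in UMIs per cell on a log axis, with cells of 2 rule genes as circles, of at least 3 rule genes as triangles and of other-lineage markers as diamonds. The 12 diamonds, 3 in each library, include the deepest cell of every library, up to 57877 UMIs, and none of the 20 triangles carries other-lineage markers.

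**Figure D2:**
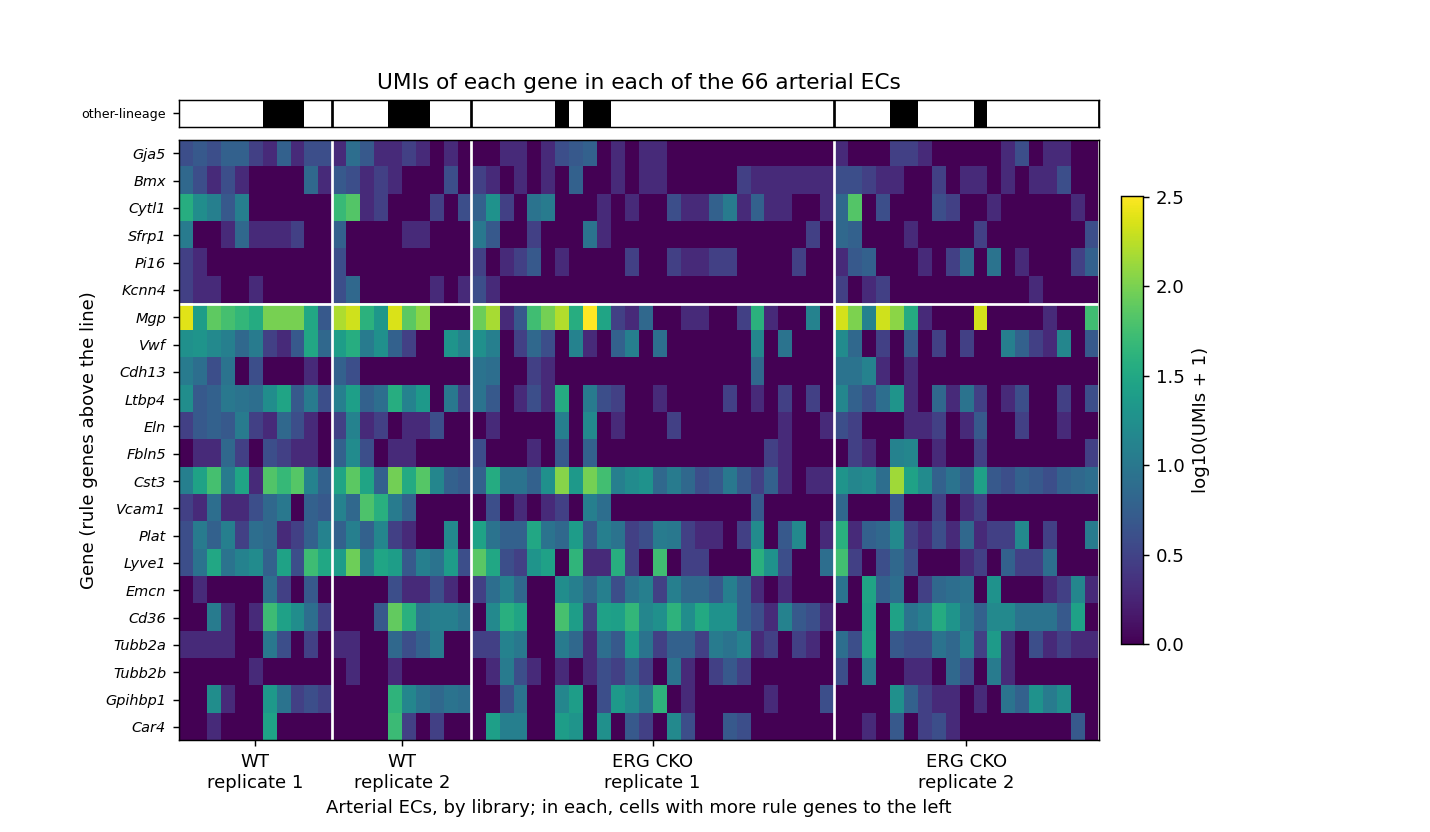
UMIs of 22 genes (rows, log10 of UMIs plus 1) in each of the 66 arterial ECs (columns, grouped by library, more rule genes to the left), with the rule genes above the line and a black mark over the 12 cells with other-lineage markers. Mgp and Vwf lie mostly at the left of each library, and Emcn, Cd36 and Tubb2a fill most ERG CKO columns.

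The share of arterial ECs was compared first. It was 1.29% (95% Wilson interval 0.724% to 2.3%) and 1.13% (0.616% to 2.07%) of gated ECs in WT and 2.25% (1.54% to 3.28%) and 2.79% (1.8% to 4.32%) in ERG CKO, a difference of 1.31 percentage points between the means of 1.21% ± 0.114 (SD, n = 2) and 2.52% ± 0.383 (SD, n = 2). Both ERG CKO libraries lay above both WT libraries, and the exact two-sided permutation test gave p = 0.333, the smallest p that 2 against 2 libraries allow. The order did not hold for the stricter rule of at least 3 rule genes, where shares were 0.706% and 0.453% for the WT mice against 0.52% and 0.588% for the ERG CKO mice (difference -0.0254 points, exact permutation p = 1). After thinning to 1000 UMIs the shares were 0.926%, 0.369%, 0.297% and 0.658%. Without Pi16 among the rule genes they were 1.29%, 1.13%, 1.56% and 1.76%, and without other-lineage cells 1.01%, 0.815%, 2.06% and 2.4%. The intervals cover counting error only, and the share depends on rule genes that are themselves transcripts.

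**Figure D3:**
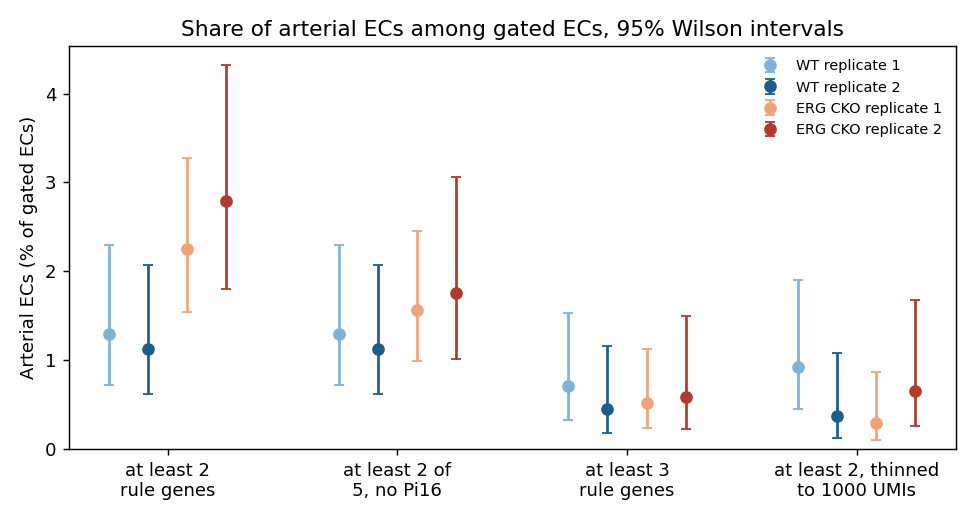
Share of arterial ECs among gated ECs in each library (%, points) with 95% Wilson intervals (bars), for the rule as used, without Pi16, at 3 rule genes and after thinning to 1000 UMIs. The ERG CKO libraries lie above the WT libraries at 2 rule genes (2.25% and 2.79% against 1.29% and 1.13%), and the groups overlap at 3 rule genes and after thinning.

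The targeted gene was examined before the others. Erg had 6, 18, 21 and 14 UMIs in arterial ECs, at 53.6 and 108 CPM in WT and 83.9 and 81.7 CPM in ERG CKO. The groups overlapped, with a log2 fold change (ERG CKO against WT) of -0.10 (SE 0.43, edgeR quasi-likelihood test, adjusted p = 0.987). Without other-lineage cells Erg was at 95.7, 175, 109 and 100 CPM. The matrix holds 1 count per gene, so reads outside an excised exon count as Erg and this value does not check the deletion.

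In all 66 arterial ECs, no gene passed the test between genotypes. Of 3444 genes tested with edgeR, 0 had an adjusted p of at most 0.05 (0%) and 272 had an unadjusted p under 0.05, and DESeq2 called 13 of 1107 genes (1.17%), 3 higher and 10 lower. The 2 ERG CKO libraries lay above both WT libraries for 22.2% of the genes and below both for 15.3%. The count rested on which libraries entered: leaving out the first WT mouse gave 103 calls with edgeR, the second WT mouse 86, the first ERG CKO mouse 0 and the second ERG CKO mouse 64, the lone library of an arm being assumed to vary like the others.

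The genes with the smallest p on the higher side are given as values. Tubb2b, a beta-tubulin, had 1, 2, 46 and 35 UMIs, or 8.93, 12, 184 and 204 CPM (log2 fold change 4.01, SE 0.49, edgeR adjusted p = 0.0593). Its neighbour on chromosome 13, Tubb2a, was at 161, 157, 536 and 624 CPM (1.80, SE 0.29, adjusted p = 0.112). Both ERG CKO libraries lay above both WT libraries for each, and reads could be split between these near-identical paralogs. Emcn, endomucin, a sialomucin that is usual on veins and capillaries and sparse on arteries, was at 125, 54.2, 560 and 618 CPM (2.71, SE 0.38, adjusted p = 0.0927). Wfdc1 was at 71.4, 48.2, 256 and 257 CPM. Without other-lineage cells Tubb2b was at 23.9, 17.5, 235 and 310 CPM and Wfdc1 at 95.7, 140, 303 and 374 CPM, still apart. The 9 cells chosen on Cytl1 and Pi16 alone held 36 Tubb2b UMIs, and without them ERG CKO was at 165 and 192 CPM. The 3 ERG CKO cells of at least 3 rule genes with more Cd36 than Mgp held 13 and 10 Tubb2b UMIs. Without these 3, the cells with at least 3 rule genes had 1, 1, 2 and 3. The metallothionein Mt1 was at 44.6, 18.1, 248 and 198 CPM, but 51 of its 62 UMIs in ERG CKO replicate 1 lay in 1 cell, and it overlapped at 120, 17.5, 34.4 and 255 CPM without other-lineage cells. Cyp1a1, a xenobiotic-metabolising enzyme, had 0, 1, 77 and 12 UMIs.

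On the lower side, Vcam1, the adhesion molecule that binds leukocyte integrins, was at 348, 801, 116 and 87.5 CPM (-2.57, SE 0.44, edgeR adjusted p = 0.113). Mgll, a lipase, was at 321, 343, 95.9 and 105 CPM (-1.80, SE 0.29, adjusted p = 0.112). For both genes the groups did not overlap. Gsn (5855, 5298, 1511 and 2462 CPM) and the fibroblast marker Pdgfra (705, 349, 140 and 128 CPM) lay almost wholly in the 12 other-lineage cells, since without these Gsn had 0, 0, 5 and 5 UMIs and Pdgfra had 0, 0, 1 and 0. The interferon-induced Iigp1 (678, 656, 268 and 175 CPM) was at 144, 385, 315 and 264 CPM without those cells, and the lipid phosphatase Plpp3 went from 848, 704, 272 and 309 CPM to 479, 228, 172 and 219 CPM.

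Without the 12 other-lineage cells, 6 of 1608 genes (0.373%) were called by edgeR, 2 higher and 4 lower in ERG CKO, and 248 had an unadjusted p under 0.05. This selection was made after the data were seen. DESeq2 called 21 of 1140 genes (1.84%), 6 higher and 15 lower, including all 6. With 1 library left out, edgeR called 65 genes (first WT mouse omitted), 83 (second WT mouse), 51 (first ERG CKO mouse) or 83 (second ERG CKO mouse), the 6 genes among them each time. Of the 54 cells, those with at least 3 rule genes made up 10 of 15 in WT and 10 of 39 in ERG CKO. Genes that differ between cells with 2 and with more rule genes therefore move with genotype here, so each gene is also given in the 20 cells with at least 3 rule genes, where 0 of 637 genes (0%) were called by edgeR and 88 had an unadjusted p under 0.05. Cells with more Cd36 than Mgp numbered 0, 3, 15 and 12 of the 54. Leaving out the 9 cells chosen on Cytl1 and Pi16 alone, all from ERG CKO, gave 7 calls, and leaving Pi16 out of the rule gave 6.

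Vwf and Vcam1 fell. Vwf, the clotting factor stored in endothelial granules (chromosome 6, 125546774 to 125686679 of GRCm38, plus strand), was at 2729 and 2050 CPM in WT and 544 and 574 CPM in ERG CKO, with 114, 117, 95 and 63 UMIs behind them. The fitted log2 difference was -2.09 (SE 0.26, edgeR adjusted p = 0.0306), and in the cells with at least 3 rule genes it was at 2638, 2235, 780 and 594 CPM (-1.75, SE 0.35, adjusted p = 0.117). With all 66 cells Vwf was at 1080, 747, 384 and 391 CPM. The WT libraries were high in each set, with no overlap. Vcam1 (chromosome 3, 116109949 to 116129688, minus strand) was at 574, 2067, 51.5 and 82.1 CPM, with 24, 118, 9 and 9 UMIs behind them and a log2 fold change of -4.34 (SE 0.62, adjusted p = 0.0306). WT replicate 2 stood above WT replicate 1, and 63 and 37 of its 118 UMIs lay in 1 cell each. Each of those cells had a UMI of 1 venous gene of the rule and none of Cdh13. In the cells with at least 3 rule genes Vcam1 was at 514, 3067, 100 and 155 CPM, and it had a UMI in 6 of 6, 4 of 4, 3 of 6 and 1 of 4 of these cells. Both genes stayed past the threshold without the 9 cells (edgeR adjusted p = 0.0408 for each). Without the 3 ERG CKO cells with more Cd36 than Mgp, the cells with at least 3 rule genes held Vwf at 1198 and 1004 CPM and Vcam1 at 129 and 262 CPM in ERG CKO, below both WT libraries.

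Fbln5 and Cst3 also fell. Fbln5, fibulin-5, an organiser of elastic fibres (chromosome 12, 101746565 to 101819055, minus strand), was at 263, 403, 40.1 and 54.7 CPM (-2.85, SE 0.44, edgeR adjusted p = 0.0306) and, in the cells with at least 3 rule genes, at 343, 598, 80 and 77.4 CPM. It rested on 11, 23, 7 and 6 UMIs. With all 66 cells it was at 152, 151, 64 and 193 CPM and the groups overlapped. Cst3, cystatin C, a secreted inhibitor of cathepsins (chromosome 2, 148871722 to 148875692, minus strand), was at 3662, 2733, 1111 and 1131 CPM (-1.50, SE 0.23, adjusted p = 0.0306) and at 4658, 3483, 1541 and 1394 CPM in the cells with at least 3 rule genes. With all 66 cells Cst3 was at 2990, 2107, 1819 and 1849 CPM. The other gated ECs held 1031 to 1144 CPM of Cst3 in all 4 libraries. Without the 9 cells the edgeR adjusted p was 0.0481 for Fbln5 and 0.0474 for Cst3, and with Pi16 out of the rule it was 0.0506 for Fbln5 and 0.0403 for Cst3.

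Emcn and Cd36 were higher, and the call of Cd36 rested on the 9 cells chosen on Cytl1 and Pi16 alone. Those cells, all from ERG CKO, held 84 UMIs of Emcn and 229 of Cd36. Without them Emcn was at 480 and 652 CPM in ERG CKO (2.62, edgeR adjusted p = 0.0481) and Cd36 at 1471 and 1304 CPM (1.35, adjusted p = 0.0984). Emcn (chromosome 3, 137341067 to 137432185, plus strand) was at 120, 70.1, 613 and 903 CPM (3.02, SE 0.47, edgeR adjusted p = 0.0306) and at 34.3, 0, 540 and 1058 CPM in the cells with at least 3 rule genes, where it was detected in 1 of 10 WT and 7 of 10 ERG CKO cells and 28 of the 41 UMIs of ERG CKO replicate 2 lay in 1 cell. In the other gated ECs Emcn was at 245 and 302 CPM in WT and 787 and 911 CPM in ERG CKO. Cd36 (chromosome 5, 17781690 to 17888801, minus strand) was at 503, 596, 2044 and 1650 CPM (1.75, SE 0.27, adjusted p = 0.0306), and at 1017, 963, 1775 and 1289 CPM with all 66 cells. In the cells with at least 3 rule genes it was at 411, 104, 1581 and 671 CPM, with 37 of the 79 UMIs of ERG CKO replicate 1 in 1 cell and all 26 UMIs of ERG CKO replicate 2 in 1 cell, and it was detected in 4 of 10 WT and 4 of 10 ERG CKO cells. The other gated ECs held 1571 to 2073 CPM of Cd36, a range that overlapped between genotypes.

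**Figure D4:**
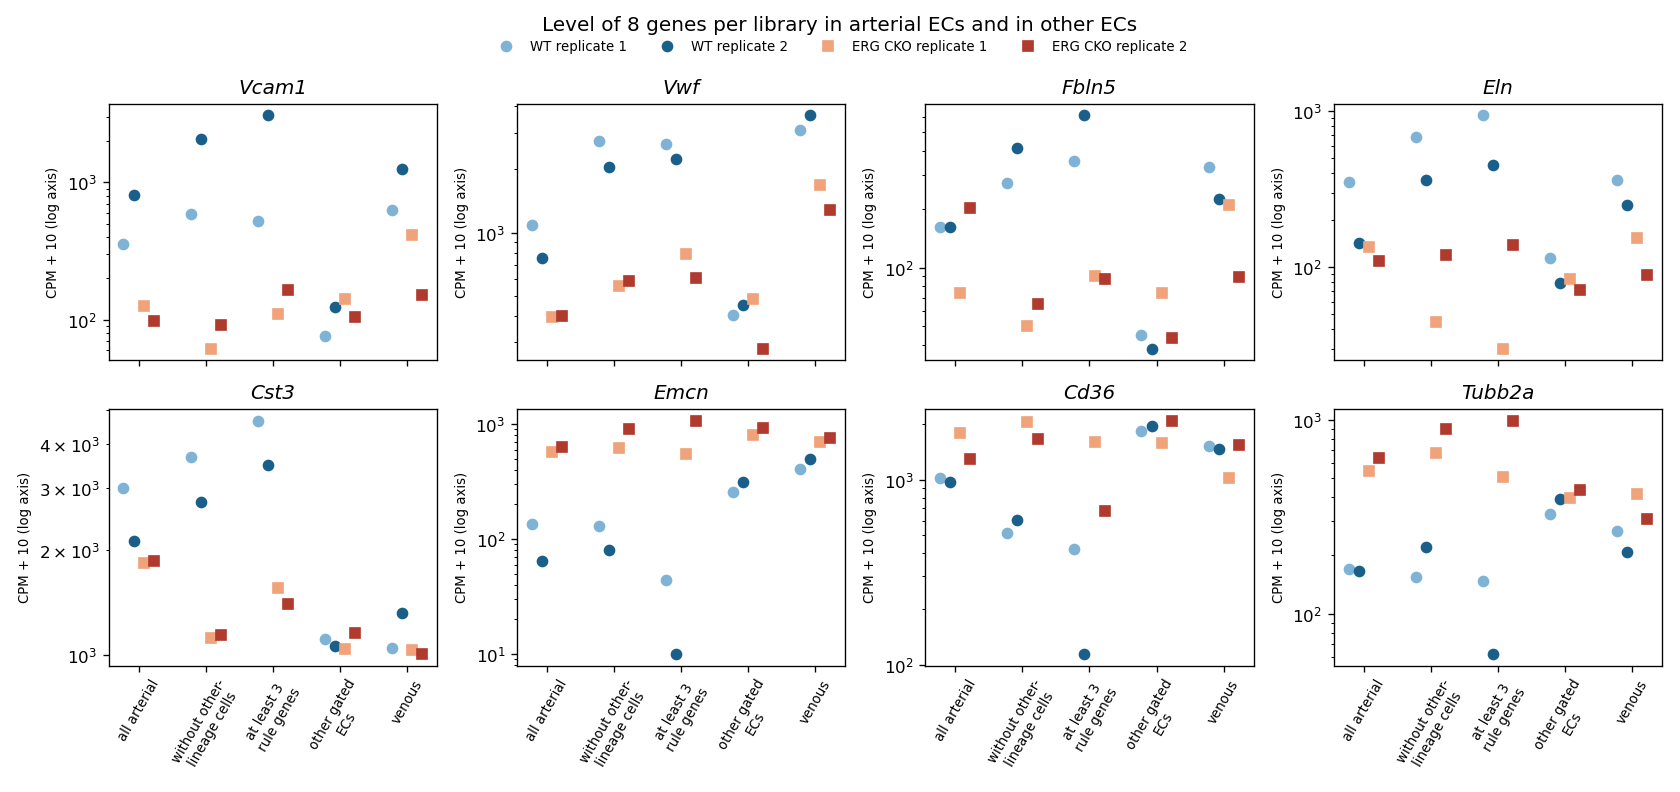
Level of 8 genes in each library (CPM plus 10, log axis) in all arterial ECs, in those without other-lineage cells, in those with at least 3 rule genes, in the other gated ECs and in venous ECs, with WT as circles and ERG CKO as squares. In arterial ECs with at least 3 rule genes Vcam1, Vwf, Fbln5, Eln and Cst3 lie higher in both WT libraries and Emcn, Cd36 and Tubb2a in both ERG CKO libraries (Cd36 and Tubb2a mostly through the 3 cells with more Cd36 than Mgp), whereas in the other gated ECs only Emcn and Tubb2a keep their groups apart, by a smaller distance. In venous ECs Vcam1, Vwf and Eln also lie higher in both WT libraries.

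Promoter sequences of the called genes, from 250 bases before to 50 after the start, were taken from RefSeq (GRCm38.p6) for 4 of the 6 genes. They are shown for 1 gene that rose and 1 that fell, 5′ to 3′ on the strand of the gene, with AGGAAG, a core bound by ETS factors, in capitals on either strand (CTTCCT where it lies on the opposite one). This hexamer occurs in 35.4% of 32851 promoters of the same length.
Emcn, chr3:137340828-137341127, plus strand: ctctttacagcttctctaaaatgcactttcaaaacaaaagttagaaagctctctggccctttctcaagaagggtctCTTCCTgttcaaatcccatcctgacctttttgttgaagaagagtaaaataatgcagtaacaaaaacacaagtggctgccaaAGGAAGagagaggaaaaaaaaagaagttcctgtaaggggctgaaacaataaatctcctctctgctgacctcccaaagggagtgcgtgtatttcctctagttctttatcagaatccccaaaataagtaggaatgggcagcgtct
Cst3, chr2:148875463-148875762, minus strand: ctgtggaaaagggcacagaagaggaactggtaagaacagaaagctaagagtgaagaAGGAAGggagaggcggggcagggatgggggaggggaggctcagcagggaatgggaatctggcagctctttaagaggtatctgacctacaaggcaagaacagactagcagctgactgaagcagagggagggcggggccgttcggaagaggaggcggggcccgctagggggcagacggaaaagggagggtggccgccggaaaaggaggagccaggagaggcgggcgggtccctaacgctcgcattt
The hexamer occurred at 2 positions in the Emcn promoter and at 1 in that of Cst3. It occurred at 0 positions in the Cd36 window and at 1 in one of the 2 windows listed for Fbln5. These matches are letters in a window and bear on no measurement here.

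Beyond single genes, lists of known function were described by counts and by the median log2 fold change, beside 0.01 over all genes tested with all 66 cells and 0.03 without the other-lineage cells. The lists were chosen with earlier results of these data known, and no list was tested as a set. Among artery genes outside the rule, 14 of 20 were tested in the 54 cells, 0 were called higher and 1 lower (Fbln5), and 12 of 14 had a negative fold change, with a median of -0.85. Both ERG CKO libraries lay below both WT libraries for 8 of the 14, against 22.3% of all genes. With all 66 cells the median over 15 genes was -0.28, with 0 called, and the share of members with 2 rule genes moved with the genotype as given above. The connexin Gja4 was at 598, 315, 155 and 201 CPM (-1.34, SE 0.42, edgeR adjusted p = 0.176), and Mgp at 12328, 7410, 2794 and 5444 CPM (-1.26, SE 0.34, adjusted p = 0.142). In the cells with at least 3 rule genes Mgp was at 16442, 10994, 7765 and 13993 CPM and the groups overlapped.

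Genes of the elastic and vessel wall matrix pointed in both directions. In the 54 cells, 9 of 16 were tested, with 0 called higher, 1 lower and a median of -1.26. Eln, elastin, was at 670, 350, 34.4 and 109 CPM (-2.89, SE 0.57, edgeR adjusted p = 0.0667), and Ltbp4, which anchors latent TGF-beta to elastic fibres, at 1484, 1034, 155 and 474 CPM (-2.04, SE 0.49, adjusted p = 0.109). Eln had a UMI in 6 of 6, 4 of 4, 1 of 6 and 2 of 4 cells with at least 3 rule genes. The basement membrane collagens stood the other way, with Col4a1 at 120, 193, 584 and 538 CPM (1.81, SE 0.39, adjusted p = 0.0809) and Col4a2 at 0, 52.6, 275 and 255 CPM (3.09, SE 0.68, adjusted p = 0.0902). With all 66 cells the list had 15 tested, 0 called and a median of -0.37.

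The specification programme of arteries showed no call. Of the Notch pathway list, 6 of 15 genes were tested in the 54 cells, with 0 called and a median of -0.40 (-0.03 over 7 genes with all 66 cells). Notch1, a receptor, was at 431, 333, 235 and 191 CPM (-0.80, SE 0.36, edgeR adjusted p = 0.327), the ligand Dll4 at 168, 123, 91.6 and 100 CPM, and the target Hes1 at 359, 210, 286 and 675 CPM, overlapping. Of 18 transcription factors, 14 were tested, with 0 called and a median of 0.12 (-0.12 over 16 genes with all cells). Fli1, the ETS factor closest to ERG, was at 120, 105, 212 and 228 CPM (0.97, SE 0.43, adjusted p = 0.316), Foxf1 at 239, 175, 710 and 538 CPM (1.62, SE 0.38, adjusted p = 0.107), and the SoxF factor Sox17 at 239, 245, 235 and 502 CPM. Among genes known to be activated by ERG, 11 of 13 were tested, with 1 called lower (Vwf), 0 higher and a median of -0.35 (-0.13 over 12 genes with all cells), and Thbd, thrombomodulin, at 311, 806, 996 and 939 CPM.

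Genes of vascular tone had a median of -0.27 over 5 of 15 tested (-0.15 over 8 with all cells) and 0 called. Cav1, caveolin-1, was at 1580, 1822, 1088 and 976 CPM (-0.72, SE 0.23, edgeR adjusted p = 0.181), and Edn1, endothelin-1, a vasoconstrictor, at 359, 455, 303 and 483 CPM. TGF-beta and BMP genes had a median of -0.39 over 11 of 18 (-0.04 over 13) and 0 called. Id1, a target of BMP signalling, was at 1412, 1174, 578 and 748 CPM (-0.96, SE 0.28, adjusted p = 0.159), and the BMP receptor Bmpr2 at 766, 666, 1145 and 1386 CPM (0.83, SE 0.27, adjusted p = 0.181). Coagulation and fibrinolysis genes had 4 of 11 tested, with Vwf called lower, 0 higher and a median of -0.07 (0.21 over 8 with 0 called in all cells). Plat, tissue plasminogen activator, was at 1317, 841, 1025 and 830 CPM and overlapped.

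Capillary genes had 10 of 17 tested, with Cd36 called higher, 0 lower and a median of 0.41, against -0.18 over 13 genes with 0 called in all cells. Kdr, the main VEGF receptor, was at 95.7, 70.1, 326 and 155 CPM (1.61, SE 0.58, edgeR adjusted p = 0.221), whereas Efna1 was at 239, 280, 63 and 63.8 CPM (-2.02, SE 0.40, adjusted p = 0.0667). Adhesion molecules and chemokines had 7 of 16 tested, with Vcam1 called lower, 0 higher and a median of -0.22 (-0.01 over 8 with 0 called in all cells). Icam1 was at 120, 491, 132 and 82.1 CPM, which overlapped.

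Interferon-stimulated genes had a median of -0.43 over 8 of 17 (-0.54 over 9 in all cells) with 0 called, Gbp4 being at 263, 158, 45.8 and 27.4 CPM (-2.37, SE 0.56, edgeR adjusted p = 0.107). MHC genes had a median of 0.22 over 8 of 9 (0.07 in all cells) with 0 called. Immediate early and dissociation stress genes, a sign of handling, had 15 of 15 tested with 0 called, 13 positive and a median of 0.35 (0.32, 9 positive, in all cells). Jund was at 838, 736, 1907 and 1933 CPM (1.30, SE 0.24, adjusted p = 0.0614) and Fosb at 503, 473, 807 and 684 CPM. Both ERG CKO libraries lay above both WT libraries for 6 of these 15 genes, against 23.6% of all genes tested, and their part in the other differences was not tested. The few marker genes of other lineages that could be tested had 0 called in all cells. Their medians were -1.11 over 5 fibroblast, 0.62 over 3 smooth muscle and pericyte and -1.27 over 3 epithelial genes. Single values were -5.14 for Lyz2 and -0.72 for Lyve1. Cdh13, the arterial marker outside the rule, stood at -0.28 with all cells and -1.13 without the other-lineage cells, and was not called.

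Whether the change in arterial ECs differed from that in the other gated ECs of the same mice was tested as an interaction of genotype with cell group over 8 sums. With all cells, 12 of 10774 genes (0.111%) were called by edgeR and 528 had an unadjusted p under 0.05. Omitting the first or second WT mouse gave 36 or 9 calls, and omitting the first or second ERG CKO mouse gave 72 or 59. Of the 12 genes, only Vcam1 was also called when the other-lineage cells were left out of both cell groups. The log2 change of Vcam1 in arterial ECs minus that in the other gated ECs was -2.76 (SE 0.36, edgeR adjusted p = 0.000597), and -4.38 (SE 0.46, adjusted p = 2.71e-17) without the other-lineage cells. Vcam1 was at 66 and 114 CPM in WT and 132 and 94.4 CPM in ERG CKO in the other gated ECs, which overlapped. In venous ECs it was at 618, 1237, 403 and 141 CPM, so there too both ERG CKO libraries lay below both WT libraries. The remaining 4 of the 5 smallest p lay elsewhere. Scgb1a1, the club cell secretoglobin, had 18, 29, 20 and 11 UMIs in arterial ECs but 32899, 120042, 842 and 306 in the other gated ECs. Postn, Spp1 and Gucy1a3 rested on single cells, since 52 of 54 and 40 of 40 Postn UMIs, 270 of 281 and 140 of 140 Spp1 UMIs, and 48 of 58 and 110 of 112 Gucy1a3 UMIs of the ERG CKO libraries lay in 1 cell per library.

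Without other-lineage cells the interaction was called for 70 of 10211 genes (0.686%), 45 higher and 25 lower, 1 of the lower being the rule gene Cytl1, and including 5 of the 6 genes called between genotypes. The difference was negative for Vwf (-1.54, SE 0.36, edgeR adjusted p = 0.00701), Fbln5 (-3.02, SE 0.59, adjusted p = 0.000273) and Cst3 (-1.42, SE 0.35, adjusted p = 0.014). It was positive for Cd36 (2.09, SE 0.38, adjusted p = 5.94e-05), whereas Emcn did not pass (1.76, SE 0.53, adjusted p = 0.093). In the other gated ECs the genotypes overlapped for Vwf, Fbln5, Cst3 and Cd36. Eln (-2.12, SE 0.48, adjusted p = 0.0041) and Tubb2a (2.19, SE 0.45, adjusted p = 0.000744) also differed. So did the stress genes Jund (1.83, adjusted p = 0.000527), Junb (1.34, adjusted p = 0.0278), Ier2 (1.47, adjusted p = 0.0181) and Hspa1b (2.30, adjusted p = 0.0201). Of the capillary list, Car4 (3.81, adjusted p = 3.86e-05), Kdr (2.11, adjusted p = 0.033), Gpihbp1 (1.59, adjusted p = 0.0165) and Tbx2 (10.39, adjusted p = 0.0193) did. No member of these lists was called lower. In the 20 cells with at least 3 rule genes, where composition by rule genes is held closer, 19 of 10264 genes (0.185%) were called. Vcam1 (-3.74, SE 0.62, adjusted p = 1.73e-05), Fbln5 (-3.14, SE 0.73, adjusted p = 0.0141) and Eln (-2.78, SE 0.70, adjusted p = 0.0343) were among those with a negative difference. They overlapped between genotypes in the other gated ECs. Emcn (4.19, SE 1.04, adjusted p = 0.0324) and Tubb2a (2.91, SE 0.69, adjusted p = 0.0191) were among those that rose further. For these the 3 ERG CKO cells with more Cd36 than Mgp weighed heavily, with 21 of 25 and 28 of 38 Tubb2a UMIs and 18 of 27 and 28 of 41 Emcn UMIs of the ERG CKO libraries. Without the 3 cells Tubb2a overlapped, at 137 and 52 CPM in WT and 129 and 436 CPM in ERG CKO, and Emcn was at 34.3, 0, 291 and 567 CPM. Vwf did not pass there (adjusted p = 0.587), nor did Cd36 (adjusted p = 0.0779) or Cst3 (adjusted p = 0.994). Of those 19 genes, 11 were also called among the 70. The 19 also held the stress gene Fosb (2.47, SE 0.56, edgeR adjusted p = 0.0122), at 308, 468, 1501 and 1188 CPM. They held the capillary gene Car4 (5.05, SE 1.03, adjusted p = 0.00317), on 1, 0, 47 and 1 UMIs. The part of stress or capillary genes in the other differences was not tested.

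Levels in the nearest groups were set beside these as a description. Venous ECs held Vwf at 3077 and 3612 CPM in WT and 1682 and 1269 CPM in ERG CKO, so Vwf was lower in ERG CKO there too. Arterial ECs without the other-lineage cells lay below the venous ECs of their own library in all 4. Capillary ECs with Sema3g and Hey1 detected held Vwf at 151 to 308 CPM and Mgp at 205 to 3001 CPM. Eln was at 353, 240, 144 and 79 CPM in venous ECs, also lower in both ERG CKO libraries than in both WT libraries. It was at 54.1 to 78.8 CPM in those capillary ECs. In each WT library arterial ECs without the other-lineage cells, at 670 and 350 CPM, thus had the most Eln of these groups. They had the least in ERG CKO replicate 1, at 34.4 CPM, and the most in ERG CKO replicate 2, at 109 CPM.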

How the data were processed

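Whole lungs of 2 WT and 2 ERG CKO mice were dissociated and single cells were captured on the 10x GemCode platform. The submitters' processing notes name Cell Ranger 3.1.0 and mm10. The authors deposited raw UMI counts of 20076 gene symbols in 9363 cells, without normalization, and 13 symbols listed more than once were left out of tests. Arterial ECs were selected by the rule in the report. The cells, gene lists and tests were chosen with earlier results of these data known. Counts of the chosen cells were added up within each library, 1 per mouse, and fitted with edgeR 4.0.16 (R 4.3.3, quasi-likelihood test, TMM, filterByExpr, Benjamini-Hochberg adjusted p at most 0.05). The interaction model held library, cell group (arterial or other gated ECs) and the product of cell group with genotype. Rule genes stayed in the fits and in the counts over all genes (10 of the 3444 and 10 of the 1608, with 3 and 5 at an unadjusted p under 0.05). Each interaction fit held 15 of them. Cytl1 is named only as part of a count of calls, and no test of a rule gene is read as a result. An SE is the log2 fold change divided by the square root of F. Both fits were tested on simulated data. DESeq2 1.42.0 was an alternative. Doublets were called with Scrublet in scanpy 1.11.5 and kept (60 cells, 0.641%). Genes named were, for each comparison, those past the threshold with mean CPM of at least 30 and no overlap, up to 12 each way, then the 6 each way of smallest p, and for the interaction the 5 of smallest adjusted p. Others were examples from the lists. The 6 genes called without other-lineage cells, the interaction genes named there and at 3 rule genes, the split of cells by Cd36 and Mgp, and the venous and capillary values were chosen after their values were seen. Venous ECs had at least 2 venous genes and at most 1 arterial rule gene. Positions are from GENCODE vM21 (GRCm38). Nothing states that the mice were littermates or handled apart, so p-values measure the spread between these libraries.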

Additional observations from a re-analysis of the deposited data

Results flagged for a closer look

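The change between genotypes in arterial ECs differed from that in the other gated ECs by an interaction test for 5 named genes, given as the log2 change in arterial ECs minus that in the other gated ECs. It was -2.76 for Vcam1 (edgeR adjusted p = 0.000597), whose level in arterial ECs was lower in both ERG CKO libraries than in both WT libraries. It was 5.89 for Scgb1a1 (edgeR adjusted p = 4.03e-06), with the fall in the other gated ECs. It was 3.89 for Postn (edgeR adjusted p = 0.000324), 5.92 for Spp1 (edgeR adjusted p = 0.000324) and 4.22 for Gucy1a3 (edgeR adjusted p = 0.000663), whose arterial UMIs in ERG CKO lay mostly in 1 cell per library.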

How the results depend on the processing

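Depth in the genotype comparison was low: 15 WT cells without other-lineage markers held 41776 and 57082 UMIs. Fbln5 and Vcam1 rested on 6 to 23 and 9 to 118 UMIs per library. Against 0 calls between genotypes in all arterial ECs, edgeR called 1 gene with RLE size factors, 105 without a filter on low counts, 5 after thinning to 1000 UMIs and 6 without other-lineage cells, DESeq2 called 13, and leaving out 1 library gave 0 to 103. The stricter EC gate, the mitochondrial limit, leaving out doublets, haemoglobin-positive cells or Pi16, and at least 3 rule genes each gave 0. Without other-lineage cells, 6 calls became 21 with DESeq2, 7 without the cells chosen on Cytl1 and Pi16 alone, 6 with Pi16 out of the rule, and 51 to 83 with 1 library left out. Against 12 calls of the interaction, there were 65 without a filter, 19 at 3 rule genes, 4 after thinning, 70 without other-lineage cells, 20 without Pi16 and 9 to 72 with 1 library left out, and Vcam1 was called under all 15 alternatives (edgeR adjusted p of 2.71e-17 to 0.0172). With the replicate number as a replicate block the counts were 81 and 85, but nothing in the labels says that the numbers pair the mice, and the differences between replicates 1 and 2 correlated at r = 0.03 between the genotypes over 3444 genes. The share difference of 1.31 points became -0.0254 at 3 rule genes and -0.17 after thinning, and was 1.04 to 1.58 with 1 library left out. Of 286 values of named genes under an alternative, 198 kept their direction and side of the threshold, 72 passed it anew, 13 no longer passed and 3 changed sign: Iigp1 to 0.09 and Scgb1a1 to -0.15 without other-lineage cells, and Spp1 to -4.57 at 3 rule genes. Leaving out other-lineage cells, Pi16 or the Cytl1 and Pi16 cells were alternatives chosen after seeing the data. The cause of these moves was not tested.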
